A study of Mus musculus with 12 samples.

Results

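The glucose transporter family was followed here through 10 genes, *Slc2a1*, *Slc2a3*, *Slc2a4*, *Slc2a6*, *Slc2a8*, *Slc2a9*, *Slc2a10*, *Slc2a12*, *Slc2a13* and *Slc5a1*, which were found by symbol among the 39017 genes of the deposited count table. The question was how much of each transporter's RNA lung tumors held, and whether another transporter was higher where *Slc2a1*, the gene of Glut1, was floxed or low. The data come from 12 lung tumors that grew in 9 mice, with 4 groups and 3 tumors per group. All mice were C57BL/6 with p53 Fl/Fl and CCSP-rtTA among their engineered alleles, so that the controls carried them too, and the CCSP promoter limits rtTA to airway club cells and some alveolar type 2 cells. KPG1 mice carried Glut1 Fl/Fl in addition. The paper states that its control mice were either wild-type for *Slc2a1* or heterozygous for the floxed allele. Wild-type below therefore names the KP and KP-PPARαΔ13 groups and can include heterozygotes. Every mouse received 6000 viral units of one lentivirus, Lenti.TRE-PPARaD13_PGK-Cre, which brings Cre together with a doxycycline-inducible PPARαΔ13, a PPARα variant that blocks the receptor as a dominant negative. KP and KPG1 mice were fed the regular diet, and KP-PPARαΔ13 and KPG1-PPARαΔ13 mice doxycycline at 625 mg/kg of diet during 15 days, so induction and diet cannot be told apart. Tumors were taken 26 weeks after initiation, and only their CD45-negative cells were used. Ages were not given in the sources used here. The 3 KP tumors came from 2 mice and all from females, the 3 KPG1 tumors from 2 mice and all from males, the 3 KP-PPARαΔ13 tumors from 3 mice, 1 of them female, and the 3 KPG1-PPARαΔ13 tumors from 2 mice, with 2 tumors from a female, the number in the labels being read as the mouse.

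Glucose crosses the cell membrane through unrelated families of carriers. Most Glut proteins (*Slc2a* genes) let sugars run down their concentration gradient, whereas Sglt1 (*Slc5a1*) pulls glucose in together with sodium and so works against the gradient. Glut1 is the broad basal transporter and is raised in many tumors, and Glut3 has a high affinity and is best known from neurons. Several other members act on inner membranes or carry other substrates, such as urate or myo-inositol.

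Among the members, *Slc2a1* had the largest difference between diets in KP-PPARαΔ13 against KP, with a log2 fold change of 1.48. *Slc5a1* had the largest in KPG1-PPARαΔ13 against KPG1, in the opposite direction (-2.88). *Slc2a1* hardly differed in KPG1-PPARαΔ13 against KPG1 (-0.027), and *Slc5a1* had -1.09 in KP-PPARαΔ13 against KP. Their promoters are shown because of these differences, as the 250 bases before the RefSeq start in build GRCm38.p6. They lie at chr4:119108495-119108744 (plus strand) and chr5:33103969-33104218 (plus strand). Capitals mark ACGTG, the core of the hypoxia response element, and GGGCGG, the GC box, each searched on both strands.
Slc2a1: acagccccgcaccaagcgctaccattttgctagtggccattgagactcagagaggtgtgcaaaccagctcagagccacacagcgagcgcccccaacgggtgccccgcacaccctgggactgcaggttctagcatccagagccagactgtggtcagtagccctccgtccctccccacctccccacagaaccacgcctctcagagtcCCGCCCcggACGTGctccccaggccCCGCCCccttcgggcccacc
Slc5a1: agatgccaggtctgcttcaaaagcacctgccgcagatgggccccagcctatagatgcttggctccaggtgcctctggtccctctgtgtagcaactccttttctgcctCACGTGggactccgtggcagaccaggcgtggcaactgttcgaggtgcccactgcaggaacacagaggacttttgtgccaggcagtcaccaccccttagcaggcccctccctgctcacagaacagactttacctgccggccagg
The *Slc2a1* window held 1 ACGTG between 2 GC boxes, and the *Slc5a1* window held ACGTG once on each strand in the same 6 letters and no GC box. Of the 8 members with a promoter in the RefSeq table, these 2 held ACGTG, and 4 held a GC box (*Slc2a1*, *Slc2a6*, *Slc2a10* and *Slc2a13*). Over all 32851 promoters of the table, 16.6% held ACGTG and 32.7% a GC box. AGGTCA, the half-site of many nuclear receptors, was in neither printed window, in 1 of the 8 members (*Slc2a9*) and in 14% of all promoters. A match is a run of letters and not a mapped binding site.

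Total counts per tumor ranged from 25263794 to 32654223. All 10 members passed the filter on low counts, as did 16527 genes in all, and differences were tested on these with edgeR's quasi-likelihood test in one fit of the 12 tumors with Benjamini-Hochberg adjustment. Levels are given as CPM (counts scaled to library size with TMM) for one gene across tumors, and as CPM per kilobase of exon (RPKM) between genes. As a check of the cells, the 8 alveolar type 2 markers summed to 22301.5 to 71157.8 CPM, while the 7 leukocyte markers found summed to only 32.8 to 76.7 CPM. Within a group, the counts of 2 tumors were 84.1 to 303.6 times more dispersed than counting error allows (chi-square over its degrees of freedom). On counts simulated for KPG1-PPARαΔ13 against KP-PPARαΔ13 over 16527 genes, the test called 7.46% of the genes given a 2-fold change, 46.3% at 4-fold and 76.9% at 8-fold. In bulk RNA, fewer cells with a transcript and less transcript per cell cannot be told apart.

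On average over the tumors, *Slc2a3* and *Slc2a1* carried most of the RNA of the 10 members. Mean RPKM over the 12 tumors was 29.8 ± 26.6 for *Slc2a3* and 18.4 ± 11.3 for *Slc2a1* (SD, n = 12 tumors for these and the following means). *Slc2a10*, a transporter of sugars and dehydroascorbic acid, followed with 6.55 ± 2.97 RPKM. *Slc2a8*, which sits mainly on inner membranes, reached 3.02 ± 1.14 RPKM, and *Slc5a1* 2.50 ± 2.02 RPKM. In mm10 *Slc2a3* lies at chr6:122727809-122801640 (minus strand), *Slc2a1* at chr4:119108711-119137983 (plus strand) and *Slc5a1* at chr5:33104219-33162870 (plus strand). The other 5 members averaged below 1 RPKM. These were *Slc2a12* with 0.617 ± 0.448 RPKM, the urate transporter gene *Slc2a9* with 0.302 ± 0.186, *Slc2a4*, the insulin-responsive transporter of muscle and fat, with 0.145 ± 0.0751, *Slc2a13*, the proton-coupled myo-inositol transporter, with 0.119 ± 0.0961, and *Slc2a6* with 0.0699 ± 0.0650 RPKM.

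The ranges of every pair of neighbours in this order overlapped. *Slc2a3* exceeded *Slc2a1* in 6 of 12 tumors by RPKM, *Slc2a1* exceeded *Slc2a10* in 11 of 12, *Slc2a10* exceeded *Slc2a8* in 10 of 12, *Slc2a8* exceeded *Slc5a1* in 8 of 12 and *Slc5a1* exceeded *Slc2a12* in 11 of 12. *Slc2a4* and *Slc2a13* were even, at 6 of 12. Of this leading pair, *Slc2a3* was the higher in 0 of 3 KP-PPARαΔ13 tumors and in 2 of 3 tumors of each other group.

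**Figure D1:**
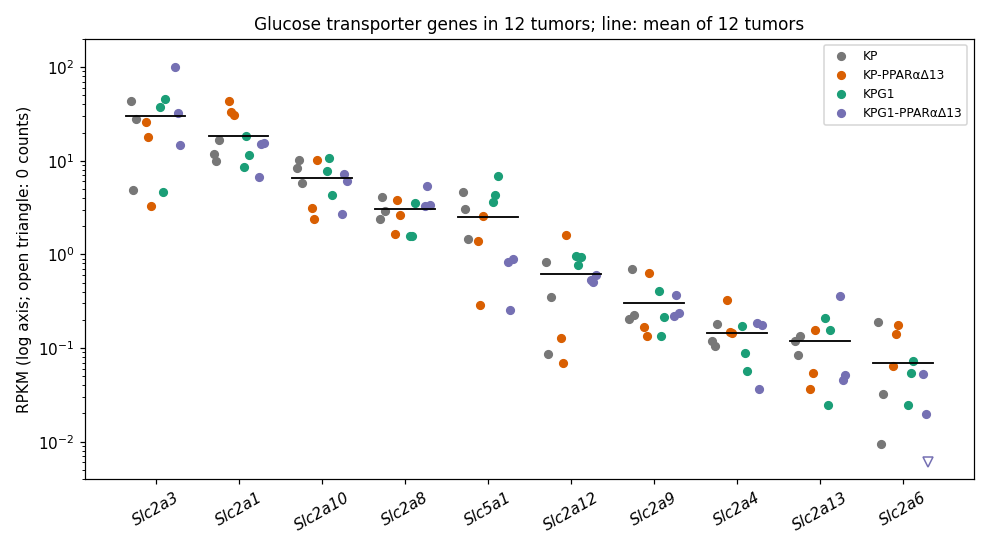
RPKM (log axis) of the 10 transporter genes in each of the 12 tumors, coloured by group, with a line at the mean of 12 tumors; the open triangle marks a count of 0, set at the foot of the axis. Genes are ordered by mean RPKM, from 29.8 for *Slc2a3* to 0.0699 for *Slc2a6*, and each gene's range overlaps that of its neighbour.

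Summed over the 10 members, transporter RNA ranged from 33.2 to 115 RPKM per tumor. The sum averaged 53.5 ± 19.5 RPKM in KP, 62.2 ± 12.6 in KP-PPARαΔ13, 57.9 ± 16.4 in KPG1 and 72.7 ± 38.1 in KPG1-PPARαΔ13 (SD, n = 3 tumors each), with overlapping ranges. *Slc2a1* and *Slc2a3* together made up 44.9 to 92.9% of it, with the lowest share in KP tumor 2. The share of *Slc2a1* was 56.6 to 59.0% in the 3 KP-PPARαΔ13 tumors, above its share in each of the other 9 tumors, where it was 5.87 to 45.1%. The share of *Slc2a3* ran from 6.36% in KP-PPARαΔ13 tumor 3 to 87.1% in KPG1-PPARαΔ13 tumor 1. The 8 other members together stayed between 6.93 and 18.3 RPKM in all 12 tumors.

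**Figure D2:**
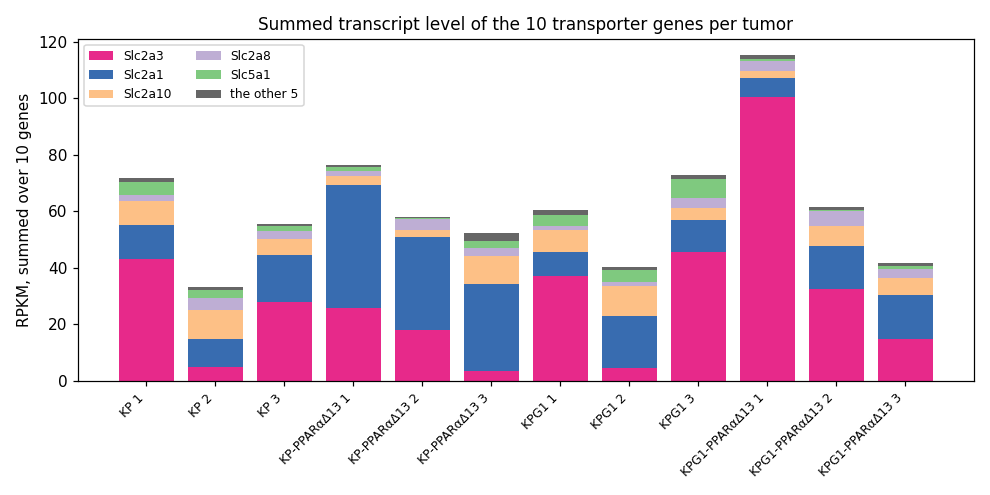
RPKM summed over the 10 genes in each tumor, stacked by gene. The sums run from 33.2 to 115 RPKM, and *Slc2a3* and *Slc2a1* fill between 44.9 and 92.9% of each bar.

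*Slc2a1*, the targeted gene, did not separate KPG1 from KP on the regular diet. It was counted at 41.7, 35.2 and 57.6 CPM in KP tumors 1, 2 and 3 and at 30.1, 63.9 and 39.9 CPM in the tumors labelled KPG1. The groups overlapped, and the log2 fold change of KPG1 against KP was -0.0064 ± 0.36 (SE; 95% confidence interval -0.78 to 0.77; edgeR adjusted p = 0.998). The gene-level counts pool all exons, and which exons the floxed allele loses is not given in the sources used here, so it was not possible to count the deleted part alone. Floxed is therefore kept as a label in what follows.

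On doxycycline the 2 genotypes separated in *Slc2a1*. It was at 152, 115 and 108 CPM in KP-PPARαΔ13 tumors 1, 2 and 3, and 23.7, 53.2 and 54.5 CPM in the tumors labelled KPG1-PPARαΔ13. The 3 KP-PPARαΔ13 tumors were above all 9 other tumors, including KP on the regular diet. Against KP the log2 fold change was 1.48 ± 0.36 (95% confidence interval 0.69 to 2.27), a 2.79-fold higher level, which edgeR did not call (edgeR adjusted p = 0.289) and DESeq2 did (adjusted p = 0.0110). KPG1-PPARαΔ13 against KP-PPARαΔ13 gave -1.51 ± 0.36 (95% confidence interval -2.31 to -0.72; edgeR adjusted p = 0.462; DESeq2 adjusted p = 0.0136). KPG1-PPARαΔ13 and KPG1 overlapped, with a log2 fold change of -0.027 ± 0.36 (edgeR adjusted p = 0.987). The difference of the doxycycline effect between the genotypes was -1.51 ± 0.50 on the log2 scale (edgeR adjusted p = 0.351).

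Some markers of other cells differed between the same groups, and not all followed *Slc2a1*. The summed level of the 5 fibroblast markers was 265 to 528 CPM in KP-PPARαΔ13, above the 112 to 241 CPM of KP, and that of the 5 red cell markers was 849 to 1319 against 319 to 764 CPM. In KPG1-PPARαΔ13 the fibroblast markers were at 127 to 183 CPM, again without overlap with KP-PPARαΔ13, whereas the red cell markers were at 731 to 1419 CPM and overlapped. In KPG1 the fibroblast markers were at 85.1 to 353 CPM, and the tumor with 353 CPM, within the range of KP-PPARαΔ13, had *Slc2a1* at 30.1 CPM. Neutrophil markers were at 3.74 to 8.54 CPM in KP-PPARαΔ13, against 1.00 to 6.50 CPM in KP, with *Ly6g* at 0 in 9 of 12 tumors. Their part in the level of *Slc2a1* was not tested. With sex as a covariate, the log2 fold change of KP-PPARαΔ13 against KP was 1.27 (edgeR adjusted p = 0.687).

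*Slc2a3* varied widely within each group. Its levels were 313, 35.0 and 202 CPM in KP tumors 1, 2 and 3. KP-PPARαΔ13 tumors had 188, 131 and 24.1 CPM. In KPG1 the gene was at 268, 33.6 and 330 CPM, and in KPG1-PPARαΔ13 at 727, 235 and 106 CPM. All 4 groups overlapped, and the highest tumor was 30.2-fold above the lowest. The log2 fold change was 0.20 ± 0.99 for KPG1 against KP (95% confidence interval -1.98 to 2.38; edgeR adjusted p = 0.982) and 1.64 ± 1.02 for KPG1-PPARαΔ13 against KP-PPARαΔ13 (95% confidence interval -0.60 to 3.87; edgeR adjusted p = 0.607). With doxycycline it was -0.68 ± 1.00 in wild-type tumors and 0.76 ± 1.00 in those labelled floxed (edgeR adjusted p = 0.863 and 0.808).

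The spread of *Slc2a3* was also there between tumors of one mouse. In the KP mouse with 2 tumors the levels were 313 and 35.0 CPM, 8.94-fold apart. They were 7.99-fold apart in the KPG1 mouse (268 and 33.6 CPM) and 6.85-fold apart in the KPG1-PPARαΔ13 mouse (727 and 106 CPM). Between the same pairs of tumors *Slc2a1* differed 1.18-, 2.12- and 2.30-fold, and *Slc5a1* 1.53-, 1.18- and 1.08-fold. *Slc2a12* differed 9.70-fold within the KP mouse, and 1.26- and 1.14-fold within the others. *Slc2a13*, counted with few reads, differed 1.42-, 8.52- and 7.04-fold, in the KPG1 and KPG1-PPARαΔ13 mice more than *Slc2a3*, and *Slc2a6* had too few reads for such folds.

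**Figure D3:**
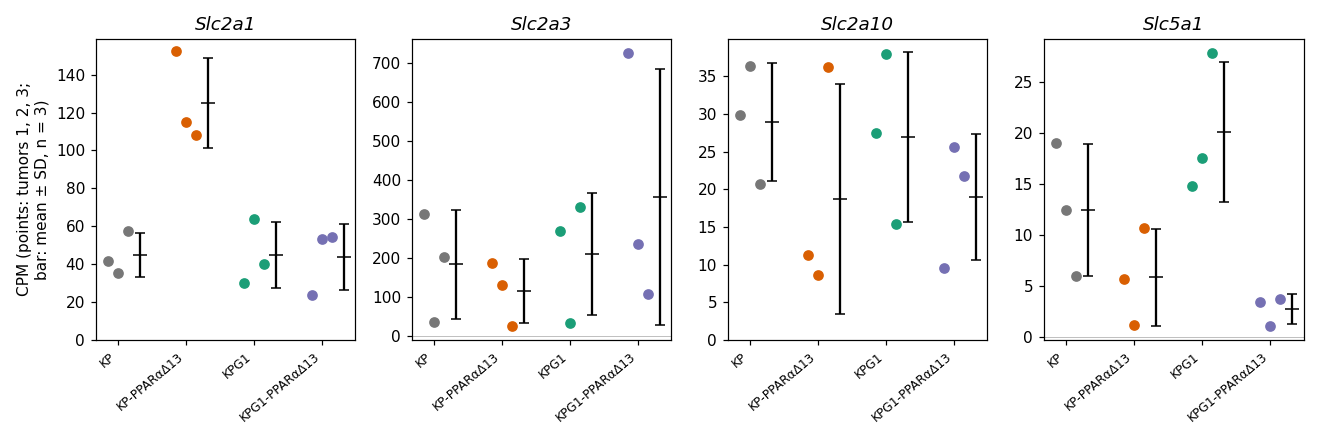
CPM of *Slc2a1*, *Slc2a3*, *Slc2a10* and *Slc5a1* in tumors 1, 2 and 3 of each group (points), with mean ± SD of the 3 tumors (bars). The 3 KP-PPARαΔ13 tumors lie between 108 and 152 CPM for *Slc2a1*, above all others, the 3 KPG1-PPARαΔ13 tumors lie at 3.69 CPM or less for *Slc5a1*, and *Slc2a3* overlaps between all groups.

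*Slc5a1*, the sodium-coupled transporter, separated the 2 diets in the tumors labelled floxed. It was at 14.8, 17.5 and 27.8 CPM in KPG1 and at 3.41, 1.06 and 3.69 CPM in KPG1-PPARαΔ13, without overlap. The log2 fold change was -2.88 ± 0.74 (95% confidence interval -4.51 to -1.25; edgeR adjusted p = 0.420; DESeq2 adjusted p = 0.0070). In wild-type tumors it was at 19.0, 12.4 and 6.02 CPM in KP and at 5.72, 1.19 and 10.6 CPM in KP-PPARαΔ13, which overlapped, with a log2 fold change of -1.09 ± 0.70 (edgeR adjusted p = 0.598). The doxycycline effects of the 2 genotypes were not shown to differ (-1.79 ± 0.99 on the log2 scale, edgeR adjusted p = 0.486), and averaged over both genotypes the log2 fold change was -1.99 ± 0.51 (edgeR adjusted p = 0.280), a comparison added after the values were seen. Between genotypes it was 0.69 ± 0.69 on the regular diet and -1.10 ± 0.71 on doxycycline (edgeR adjusted p = 0.875 and 0.616). Beside the doxycycline difference, the 8 alveolar type 2 markers summed to 42612.5 to 71157.8 CPM in KPG1 and 24984.6 to 37132.5 CPM in KPG1-PPARαΔ13, and the 3 club markers to 140 to 376 and 68.0 to 219 CPM. Their part in the level of *Slc5a1* was not tested.

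*Slc2a10* was counted at 29.8, 36.4 and 20.8 CPM in KP and at 11.2, 8.61 and 36.2 CPM in KP-PPARαΔ13. It was at 27.5, 38.0 and 15.4 CPM in KPG1 and at 9.54, 25.6 and 21.8 CPM in KPG1-PPARαΔ13. The groups overlapped in every comparison. Its log2 fold change with doxycycline was -0.63 ± 0.55 in wild-type and -0.50 ± 0.55 in floxed-labelled tumors, and between genotypes -0.11 ± 0.55 on the regular diet and 0.023 ± 0.55 on doxycycline (edgeR adjusted p from 0.722 to 0.993).

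*Slc2a8* was the steadiest member, 3.44-fold apart between the highest and the lowest tumor. It lay at 7.63, 13.1 and 9.43 CPM in KP, 5.34, 12.3 and 8.54 in KP-PPARαΔ13, 5.0, 5.09 and 11.3 in KPG1, and 10.5, 17.2 and 10.9 CPM in KPG1-PPARαΔ13. Of its 4 comparisons the largest difference was 0.85 ± 0.42 on the log2 scale, for KPG1-PPARαΔ13 against KPG1 (95% confidence interval -0.077 to 1.78; edgeR adjusted p = 0.50), where 1 KPG1 tumor lay within the range of the other group.

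*Slc2a12*, a facilitative transporter of muscle and other tissues, was uneven in the wild-type tumors and even in the others. Its levels were 3.52, 0.364 and 1.5 CPM in KP and 0.548, 0.290 and 6.86 CPM in KP-PPARαΔ13. They were 4.12, 3.27 and 3.93 CPM in KPG1 and 2.25, 2.14 and 2.55 CPM in KPG1-PPARαΔ13. The latter groups did not overlap, but the spread shared by the fit was wide, and the log2 fold change was -0.70 ± 1.00 (edgeR adjusted p = 0.822). KPG1 against KP gave 1.07 ± 1.01 (edgeR adjusted p = 0.866). The gene overlaps *Tbpl1* on the other strand, and the strand setting of the counting is not given in the sources used here, so reads of the 2 genes cannot be told apart in the overlap.

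The other 4 members were counted with few reads, *Slc2a9* with 20 to 116 per tumor, *Slc2a13* with 6 to 89, *Slc2a4* with 4 to 33 and *Slc2a6* with 0 to 18. *Slc2a9* was at 0.678 to 3.51 CPM and *Slc2a13* at 0.206 to 3.03 CPM, each with overlapping groups. *Slc2a4* was at 0.364 to 0.626 CPM in KP and 0.502 to 1.13 CPM in KP-PPARαΔ13, also overlapping. The 5 heart and skeletal muscle markers summed to 2.39 to 4.28 and 7.52 to 22.4 CPM there. In KPG1 and KPG1-PPARαΔ13 *Slc2a4* overlapped too, at 0.198 to 0.600 and 0.128 to 0.648 CPM, while these markers summed to 3.30 to 4.36 and 6.75 to 15.0 CPM. Their part in the level of *Slc2a4* was not tested. The 4 adipocyte markers summed to 0.661 to 4.47 CPM over the 12 tumors, with *Cidec* at 0.480 to 4.36 CPM, while *Lep* was at 0 in all 12 tumors and *Adipoq* and *Plin1* each in 4. *Slc2a6*, a transporter of inner membranes, had 6, 14 and 17 counts in KP-PPARαΔ13 tumors and 5, 2 and 0 in KPG1-PPARαΔ13, and a count of 0 allows up to 3 counts. These 2 groups did not overlap in CPM (edgeR adjusted p = 0.518). In KP it had 18, 1 and 3 counts and in KPG1 2, 5 and 7. Counts of at least 10, the minimum of the filter, were found only in KP tumor 1 and in KP-PPARαΔ13 tumors 2 and 3. *Slc2a6* thus passed the filter only through KP and KP-PPARαΔ13 tumors, so the missing overlap is not evidence of a difference. Counting error alone is large at these levels.

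Counted over the family, 0 of 10 members passed an edgeR adjusted p of 0.05 in each of the 4 comparisons and in the difference of the doxycycline effects. Of the 16527 genes tested, 0.0363% passed in KPG1 against KP, 0.0303% in KPG1-PPARαΔ13 against KP-PPARαΔ13, 0.00605% in KP-PPARαΔ13 against KP, 0.00605% in KPG1-PPARαΔ13 against KPG1 and 0% in the difference. At an unadjusted p under 0.05 the members numbered 0, 1, 1, 1 and 1 of 10 in that order, beside 6.23%, 9.69%, 11.4%, 10.8% and 11.8% of all genes, and the member was *Slc2a1* except in KPG1-PPARαΔ13 against KPG1, where it was *Slc5a1*. Groups did not overlap for 0, 2, 1 and 2 of 10 members in the 4 comparisons, beside 9.95%, 17.6%, 13.3% and 20.6% of all genes. In KPG1-PPARαΔ13 against KP-PPARαΔ13 they included *Slc2a6*, which passed the filter only through KP and KP-PPARαΔ13 tumors. With 10 members, these shares lie near or below the background. The median log2 fold change of the 10 members was -0.056, -0.16, -0.24 and 0.046, beside -0.029, 0.0052, -0.0082 and 0.023 over all genes.

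With DESeq2, adjusted p-values under 0.05 were given to *Slc2a1* in KPG1-PPARαΔ13 against KP-PPARαΔ13 and in KP-PPARαΔ13 against KP, and to *Slc5a1* in KPG1-PPARαΔ13 against KPG1. DESeq2 called 60, 155, 372 and 211 genes in the 4 comparisons and 286 in the difference, where edgeR called 6, 5, 1, 1 and 0. The genotype comparisons share samples with the diet comparisons, so these results are not independent of each other.

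**Figure D4:**
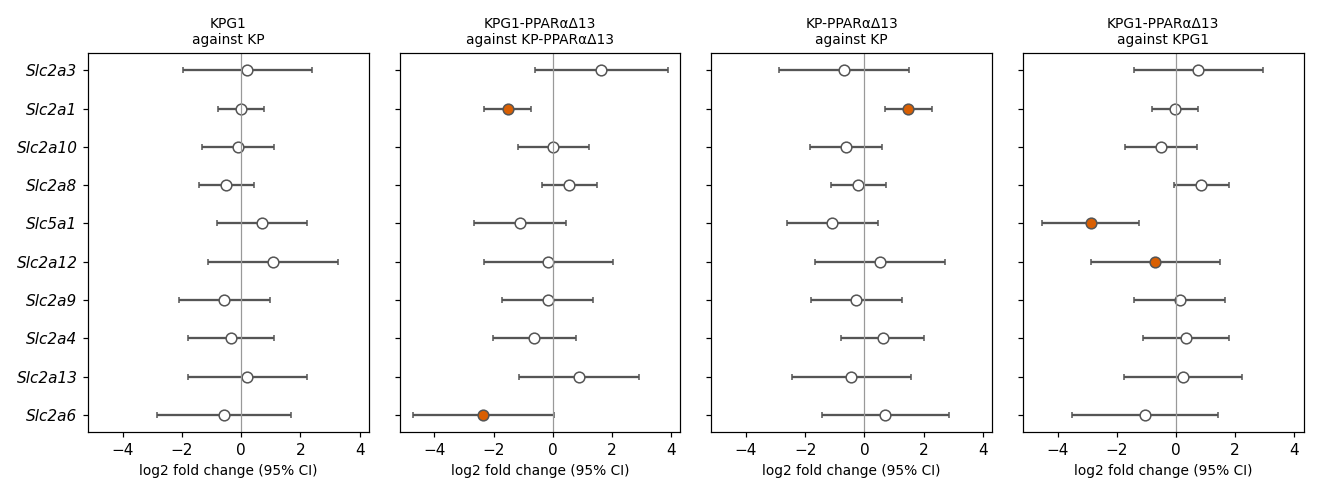
Log2 fold change with its 95% confidence interval for each member in the 4 comparisons, from the edgeR fit of 12 tumors. Filled points mark members whose groups do not overlap: *Slc2a1* and *Slc2a6* in the second panel, *Slc2a1* in the third, and *Slc5a1* and *Slc2a12* in the fourth.

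Whether one transporter stood high where another stood low was asked of all 45 pairs of members, with Pearson's r and Spearman's rank coefficient of log2 CPM and two-sided permutation tests of 100000 resamples. These tests treat tumors as exchangeable, although some share a mouse and they differ in diet or genotype. With Benjamini-Hochberg adjustment over the 45 pairs, 0 passed 0.05 by either measure, and 2 had an unadjusted Pearson p under 0.05. Negative coefficients were as common as positive ones, with 22 and 23 pairs. The largest gap between neighbouring tumors did not exceed 50% of the range of any member, so tumors were not split into clusters.

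For *Slc2a1* and *Slc2a3*, r was -0.43 over 12 tumors (permutation p = 0.163, adjusted p = 0.733) and Spearman's coefficient -0.61 (permutation p = 0.0400, adjusted p = 0.530). Without the 2 tumors farthest from the median of *Slc2a1*, r was -0.43, and without the 2 farthest in *Slc2a3* it was -0.28. Leaving out single tumors gave -0.61 to -0.26, and over the means of the 9 mice r was -0.39 (exact permutation p = 0.316). In deviations from the group means r was -0.34. Among the 6 wild-type tumors, whose 2 groups did not overlap in *Slc2a1*, r was -0.0056 (exact permutation p = 0.992). Among the 6 tumors labelled floxed it was -0.85 (exact permutation p = 0.0236, adjusted over 45 pairs 0.266). Whether these coefficients differ was not tested. On the regular diet r was -0.32 and on doxycycline -0.64 (exact permutation p = 0.536 and 0.174), and in tumors of females and males it was -0.32 and -0.48 (exact permutation p = 0.567 and 0.318). A relation between the 2 main transporters was thus not shown beyond the spread of 12 tumors.

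The smallest unadjusted p of Pearson's r over the 12 tumors belonged to *Slc2a3* and *Slc2a10*, with r of -0.61 (permutation p = 0.0375, adjusted p = 0.714). Without the 2 tumors farthest from the median of *Slc2a3*, r was -0.41, and over the 9 mice it was -0.55 (exact permutation p = 0.114). Spearman's coefficient was -0.50 (permutation p = 0.0990, adjusted p = 0.530). In deviations from the group means r was -0.79. Among wild-type tumors it was -0.50 and among those labelled floxed -0.83 (exact permutation p = 0.292 and 0.0431, adjusted over 45 pairs 0.704 and 0.388). It was -0.74 on the regular diet and -0.67 on doxycycline (exact permutation p = 0.101 and 0.143). The 3 tumors with the most *Slc2a10*, at 36.2 to 38.0 CPM, were the 3 with the least *Slc2a3*, at 24.1 to 35.0 CPM. The other pair was *Slc2a1* and *Slc2a13*, with r of -0.60 (permutation p = 0.0393, adjusted p = 0.714) and Spearman's coefficient of -0.60 (permutation p = 0.0429, adjusted p = 0.530). Without the 2 tumors farthest from the median of *Slc2a1*, r was -0.33, without the 2 farthest in *Slc2a13* -0.52, and over the 9 mice -0.49 (exact permutation p = 0.180). In deviations from the group means it was -0.83. Among wild-type tumors it was -0.50 and among those labelled floxed -0.98 (exact permutation p = 0.297 and 0.00278, adjusted over 45 pairs 0.704 and 0.125). *Slc2a13* rests on 6 to 89 counts. The tumors labelled floxed came from 2 mice in each of 2 diet groups, so their p-values count tumors of one mouse as independent. Over the 9 mice the smallest unadjusted p belonged to a positive pair, *Slc2a9* and *Slc2a10*, with r of 0.86 (exact permutation p = 0.00236). Over the 12 tumors r of that pair was 0.56 (permutation p = 0.0565, adjusted p = 0.714), and *Slc2a9* rests on 20 to 116 counts.

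**Figure D5:**
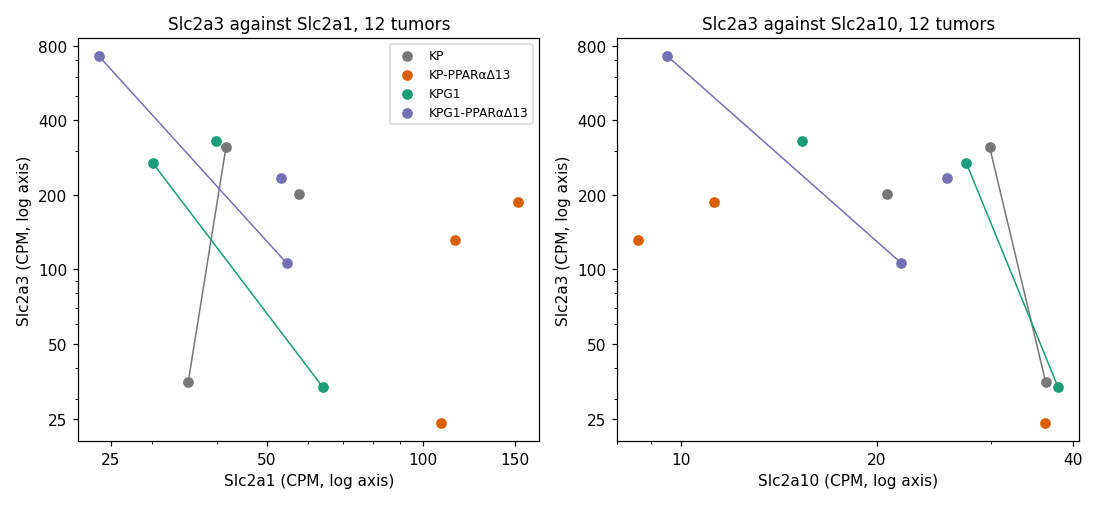
CPM of *Slc2a3* against *Slc2a1* (left) and against *Slc2a10* (right) in 12 tumors, both axes log, with lines joining 2 tumors of one mouse. Pearson's r of log2 CPM is -0.43 on the left and -0.61 on the right, with adjusted p = 0.733 and 0.714.

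The genes whose pattern over the 12 tumors was most like that of *Slc2a1* included *Ergic1*, *Rad23b*, *Tns4* and *Tle4*, each with Pearson's r of 0.94 among 12465 genes compared. For *Slc2a3* they were *Fam151b* and *Mettl14* (both r = 0.91), *Mecr* (0.90), *Skiv2l2* (0.89) and *Ndufa4* (0.87). These coefficients are the largest of many and carry no test.

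Of 14 other sugar transporter genes, 6 passed the filter and 0 were called in any comparison. *Slc50a1*, the Sweet1 transporter gene, was at 32.2 ± 9.76 RPKM (SD, n = 12), as high as *Slc2a3* on average and much steadier, with a range of 13.8 to 52.0 RPKM. *Slc45a4*, *Slc45a3* and *Slc5a3* averaged 5.67 ± 1.56, 4.30 ± 3.05 and 4.06 ± 2.97 RPKM, above the means of *Slc2a8* and *Slc5a1*. *Slc2a2*, the liver and islet transporter Glut2, averaged 0.202 ± 0.125 RPKM. *Slc5a2*, the kidney transporter Sglt2, had 0 to 5 counts per tumor and was not tested, nor was the fructose transporter gene *Slc2a5*, with 0 to 15 counts.

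Genes around the transporters were taken as 5 further lists, and edgeR called 0 genes of any of them in any comparison. Over all 16527 genes tested, edgeR called at most 0.0363% in any of the 4 comparisons, so this 0 says little about the lists. Among 17 genes of transporter traffic and turnover, *Txnip* and *Arrdc4*, both of which promote removal of Glut1 from the cell surface, had log2 fold changes of -1.39 ± 0.37 and -1.29 ± 0.34 in KPG1-PPARαΔ13 against KPG1 (edgeR adjusted p = 0.420 for both). *Tbc1d4*, a brake on Glut4 traffic, had -1.70 ± 0.32 in KP-PPARαΔ13 against KP (edgeR adjusted p = 0.249). The related *Tbc1d1* went the other way in that comparison, with 0.76 ± 0.22 (edgeR adjusted p = 0.308). The list's median was -0.16 and -0.056 in these comparisons. Among 14 transcription factors *Mlxipl*, the glucose-sensing ChREBP, was at 1.88 to 18.7 CPM in KP, 0.411 to 0.502 in KP-PPARαΔ13, 0.958 to 2.52 in KPG1 and 1.81 to 4.37 CPM in KPG1-PPARαΔ13. Its spread in KP was wide (mean 7.70 ± 9.52 CPM, SD, n = 3), and KP overlapped KPG1. Relative to KP the log2 fold change was -4.04 ± 0.88 for KP-PPARαΔ13 and -2.31 ± 0.80 for KPG1 (edgeR adjusted p = 0.256 and 0.785). It had the opposite sign in KPG1-PPARαΔ13, with 2.72 ± 0.83 against KP-PPARαΔ13 and 0.98 ± 0.78 against KPG1 (edgeR adjusted p = 0.470 and 0.676).

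The median log2 fold change of 15 hypoxia-induced genes was 0.43 in KPG1 against KP, 0.48 in KP-PPARαΔ13 against KP, -0.25 in KPG1-PPARαΔ13 against KP-PPARαΔ13 and -0.33 in KPG1-PPARαΔ13 against KPG1. Over all genes tested the medians were -0.029, -0.0082, 0.0052 and 0.023 in that order. A link of this list to the transporter levels was not tested. Within the list *Bhlhe40* had -1.07 ± 0.32 and *Car9* -2.62 ± 1.06 in KPG1-PPARαΔ13 against KP-PPARαΔ13 (edgeR adjusted p = 0.462 and 0.499). *Pdk1*, *P4ha1* and *Kdm3a* had positive values in that comparison, and the rest of the list negative ones. Among 15 tested genes of glucose phosphorylation and the lactate step, the lactate exporter gene *Slc16a3* had 2.04 ± 0.67 in KP-PPARαΔ13 against KP (edgeR adjusted p = 0.328). *Ldhb* went the other way in that comparison, with -1.78 ± 0.76 (edgeR adjusted p = 0.409). *Ldha* had 0.84 ± 0.26 in KPG1 against KP (edgeR adjusted p = 0.785). The medians of this list lay between -0.21 and 0.25. Of the list of genes that bear on the sodium gradient and on Sglt1, 6 were tested, and the kinase gene *Sgk1* had 0.70 ± 0.53 in KP-PPARαΔ13 against KP (edgeR adjusted p = 0.669).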

How the data were processed

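RNA of the CD45-negative cells of 12 tumors was sequenced (TruSeq stranded mRNA, single-end). The authors trimmed reads with Cutadapt and aligned them to mm10 with HISAT2. The deposited values are counts of reads per gene, not normalized, in 12 files that equal a combined table. The submitters' processing notes name cutadapt 1.4.2, featureCounts 1.4.4, bcl2fastq 2.17 and edgeR. The gene annotation is not given in the sources used here. Deposited log2 values were not used.

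The members and gene lists were chosen with earlier results of these data known. Counts were tested with edgeR 4.0.16 (TMM, filterByExpr by group, glmQLFit, glmQLFTest) under R 4.3.3, group alone as term, with Benjamini-Hochberg adjustment at 0.05. Each standard error was obtained as log2 fold change over the root of the F statistic. RPKM used the union of exons of GENCODE M21, whose positions for the members are those of mm10. Correlations used log2 CPM with a prior count of 2. DESeq2 1.42.0 and limma 3.58.1 voom were alternatives, besides other scaling, no filter, a mean of at least 20 TPM, sex, replicate number, tumors of a mouse summed and each tumor left out. The edgeR and correlation steps were tested on simulated data. All members were named, with up to 4 genes per list and comparison of the largest change at a mean of at least 1 CPM eligible for values. Fold changes are given by name for members with a mean above 2 CPM. *Stxbp3* and *Adgre1* were not found by symbol. The replicates are tumors, some of one mouse, so p-values in part measure the spread within a mouse. Protein sequences were not used here, and some genes and alleles are not reported here.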

Additional observations from a re-analysis of the deposited data

How the results depend on the processing

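The 12 tumors had similar depth, and counting error is large for the 4 rarest members. Whether deeper sequencing would change a call was not tested. No member passed the edgeR threshold under any alternative fitted with edgeR or limma voom. For KPG1 against KP, KPG1-PPARαΔ13 against KP-PPARαΔ13, KP-PPARαΔ13 against KP, KPG1-PPARαΔ13 against KPG1 and the difference of the doxycycline effects, the genes called numbered 6, 5, 1, 1 and 0. They were 60, 155, 372, 211 and 286 with DESeq2, which was the alternative that called members, and 2, 2, 0, 0 and 0 when the 2 tumors of a mouse were summed. With sex as a covariate they were 2, 2 and 0 in the first 3 comparisons, and sex and genotype coincide on the regular diet. Voom called 0 in KPG1-PPARαΔ13 against KPG1, and the fit without a filter 2 in KP-PPARαΔ13 against KP. Leaving out each tumor gave 2 to 3, 2 to 4, 0 to 1, 0 to 2 and 0. The cause of these changes was not tested.

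Same-numbered tumors did not deviate together (r from -0.168 to 0.0896 over 12 pairs, 3 of which correlated best with their own number), so the numbers were not taken as pairs. With the replicate block the genes called were 3 in KPG1-PPARαΔ13 against KP-PPARαΔ13, 2 in KPG1-PPARαΔ13 against KPG1 and 0 in KP-PPARαΔ13 against KP, and *Slc2a12* turned to 0.56 in KPG1-PPARαΔ13 against KP-PPARαΔ13.

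Other log2 fold changes turned sign without being called in either fit. *Slc2a1* in KPG1 against KP turned to 0.0019 with DESeq2 size factors, 0.0019 with DESeq2 and 0.0070 without a filter, and ran from -0.34 to 0.22 with tumors left out. In KPG1-PPARαΔ13 against KPG1 it turned to 0.0096 at 20 TPM, 0.17 with sex and 0.076 with mice summed, and ran from -0.25 to 0.29. *Slc2a12* turned to 1.14 and -0.23 with voom in KPG1-PPARαΔ13 against KP-PPARαΔ13 and KP-PPARαΔ13 against KP, and with sex to 1.01 and -0.99 there, -0.57 in KPG1 against KP, 0.59 in KPG1-PPARαΔ13 against KPG1 and 1.59 in the difference. *Slc2a10* turned to 0.19 with sex in KPG1-PPARαΔ13 against KPG1. With tumors left out, *Slc2a12* ran from -0.68 to 2.46 in KPG1-PPARαΔ13 against KP-PPARαΔ13, -2.09 to 1.47 in KP-PPARαΔ13 against KP and -2.17 to 1.38 in the difference. *Slc2a10* ran from -0.41 to 0.20 in KPG1 against KP, -0.32 to 0.94 in KPG1-PPARαΔ13 against KP-PPARαΔ13 and -0.22 to 1.04 in the difference. *Slc2a3* ran from -0.29 to 0.83 in KPG1 against KP and -0.30 to 1.2 in KPG1-PPARαΔ13 against KPG1, and *Slc2a8* from -0.54 to 0.051 in KP-PPARαΔ13 against KP. The differences of *Slc2a1* in KP-PPARαΔ13 against KP (1.27 to 1.70) and KPG1-PPARαΔ13 against KP-PPARαΔ13 (-1.70 to -1.22), and of *Slc5a1* in KPG1-PPARαΔ13 against KPG1 (-3.25 to -2.42), kept their direction under every alternative in which they were fitted (*Slc5a1* was not among the genes with a mean of at least 20 TPM), with adjusted p of 0.0110 to 0.687, 0.0136 to 0.903 and 0.0070 to 0.999. The correlations gave 0 pairs under each alternative, and RPKM with the longest transcript moved no mean by more than its SD.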

Other observations

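Heart and skeletal muscle markers (*Myh6*, *Tnnt2*, *Acta1*, *Ckm*, *Mb*), chosen for mention after their values were seen, summed to 6.75 to 22.4 CPM in the 6 tumors of doxycycline-fed mice and to 2.39 to 4.36 CPM in the 6 tumors of mice on the regular diet, without overlap in either genotype. *Myh6* and *Tnnt2* reached 10.3 and 18.3 CPM, while *Acta1*, *Ckm* and *Mb* reached only 1.84, 0.341 and 1.47 CPM. Between the diets, 13.3% of all single genes did not overlap in wild-type tumors and 20.6% in those labelled floxed. *Slc2a2*, outside the 10 members, was at 1.38 to 2.86 CPM in KPG1-PPARαΔ13 and at 0.234 to 1.06 CPM in KP-PPARαΔ13, with a log2 fold change of 1.43 ± 0.63 (edgeR adjusted p = 0.505). It rests on 7 to 84 counts per tumor, and 17.6% of all genes did not overlap between these 2 groups.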
